A study of Mus musculus with 6 samples.

Results

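A set of 10 genes that glucocorticoids classically induce, Fkbp5, Tsc22d3, Dusp1, Klf9, Zbtb16, Zfp36, Errfi1, Pdk4, Mt1 and Mt2, was followed across colonic tumors of mice with a normal or a dimerization-deficient glucocorticoid receptor. The genes were chosen by name for their textbook status, with earlier results of these data known. All 10 were present among the 24797 genes of the count table and among the 18756 genes that passed the filter on low counts. Polyadenylated RNA had been sequenced from 3 tumors of GRwt mice, which carry the wildtype receptor, and 3 tumors of GRdim mice, which carry the dimerization-deficient receptor. The tumors of both genotypes had arisen under AOM/DSS, a regimen that joins the carcinogen azoxymethane to dextran sulfate sodium, an agent that injures the colonic lining. The labels give neither doses, age, sex, background strain nor the hour of sampling, and name no glucocorticoid treatment. Nothing in them states that each library is a different animal, and the p-values below therefore rest on the spread between samples, which may be technical.

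The glucocorticoid receptor is the nuclear receptor for corticosterone, the main glucocorticoid of mice. Bound to hormone, it occupies DNA as a dimer at palindromic response elements, and it can also act as a monomer or through other transcription factors. The GRdim allele carries a substitution in the dimer interface of the DNA-binding domain and is widely used to separate these modes. The 10 genes encode feedback and anti-inflammatory proteins (Fkbp5, Tsc22d3, Dusp1, Zfp36, Errfi1), transcription factors (Klf9, Zbtb16), a metabolic kinase (Pdk4) and metal-binding proteins (Mt1, Mt2). Most of them also answer to other stimuli, such as mitogens, fasting or metals.

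Levels are given as CPM, counts scaled to a common library size with TMM factors, and differences as log2 fold changes, GRdim minus GRwt, from the edgeR quasi-likelihood test. Library totals ran from 21132981 to 36222351 counts. The library names of 1 sample per genotype, GRwt replicate 3 and GRdim replicate 1, contain the letter T, which the labels do not explain. Rn18s-rs5, a ribosomal sequence, made up 2.51% and 2.05% of their counts, against 0.0466% to 0.0725% in the other 4. They were also the most alike of all pairs (r = 0.989 across the genes tested, which are not independent replicates). GRdim replicates 1 and 3 have library names with the shared number 18, and whether they came from 1 animal is not stated. Ddx3y, which is Y-linked, reached 59.5 CPM in GRdim replicate 2 with Xist at 0.255 CPM, whereas the other 5 libraries had 517 to 1280 CPM of Xist and at most 0.763 CPM of Ddx3y. Epithelial markers were abundant in every library: the 10 listed genes summed to between 12700 and 19400 CPM. All 10 had a negative log2 fold change (median -0.17), 0 of them with an unadjusted p under 0.05 by edgeR. This direction rested on GRwt replicate 2, without which 6 were positive and 4 negative. In such bulk tissue fewer cells of a type and less RNA per cell cannot be told apart. The receptor's own transcript, Nr3c1, stood at 44.0, 57.4 and 64.5 CPM in GRwt and 80.5, 49.2 and 49.3 CPM in GRdim tumors. The allele is a point change, so this level does not check the genotype labels.

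In the coordinates of the deposited table (GRCm39) the protein-coding gene models spanned the following intervals, exons and introns together. Fkbp5 (ENSMUSG00000024222) lies on chromosome 17 from 28618068 to 28736501, minus strand. Tsc22d3 (ENSMUSG00000031431) lies on chromosome X from 139440277 to 139501408, minus strand. Dusp1 (ENSMUSG00000024190) lies on chromosome 17 from 26724564 to 26781102, minus strand. Klf9 (ENSMUSG00000033863) lies on chromosome 19 from 23118590 to 23145498, plus strand. Zbtb16 (ENSMUSG00000066687) lies on chromosome 9 from 48565597 to 48747522, minus strand. Zfp36 (ENSMUSG00000044786) lies on chromosome 7 from 28076209 to 28079678, minus strand. Errfi1 (ENSMUSG00000028967) lies on chromosome 4 from 150938376 to 150953349, plus strand. Pdk4 (ENSMUSG00000019577) lies on chromosome 6 from 5483351 to 5496309, minus strand. Mt1 (ENSMUSG00000031765) lies on chromosome 8 from 94905710 to 94906955, plus strand. Mt2 (ENSMUSG00000031762) lies on chromosome 8 from 94899292 to 94900196, plus strand.

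None of the 10 genes differed between the genotypes past the threshold of an adjusted p of 0.05. With edgeR 0 of 18756 genes passed (0%), and an unadjusted p under 0.05 was found for 541 genes (2.88%). Among the 10 genes only Pdk4 had an unadjusted p under 0.05. DESeq2 called 33 genes over the whole table, 9 higher and 24 lower in GRdim, and 0 of the 10; limma-voom called 0. At an unadjusted p under 0.05 those tools listed 687 and 903 genes. In no case did the GRwt and GRdim values of a gene separate completely, against 6.55% of all genes tested. Of the 10, 6 had a positive log2 fold change (50.6% of all genes tested) and 4 a negative one. Their median was 0.21, and the median over all genes tested was 0.004. The direction was thus mixed, and the intervals given for each gene show how large a change 6 libraries leave possible.

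**Figure D1:**
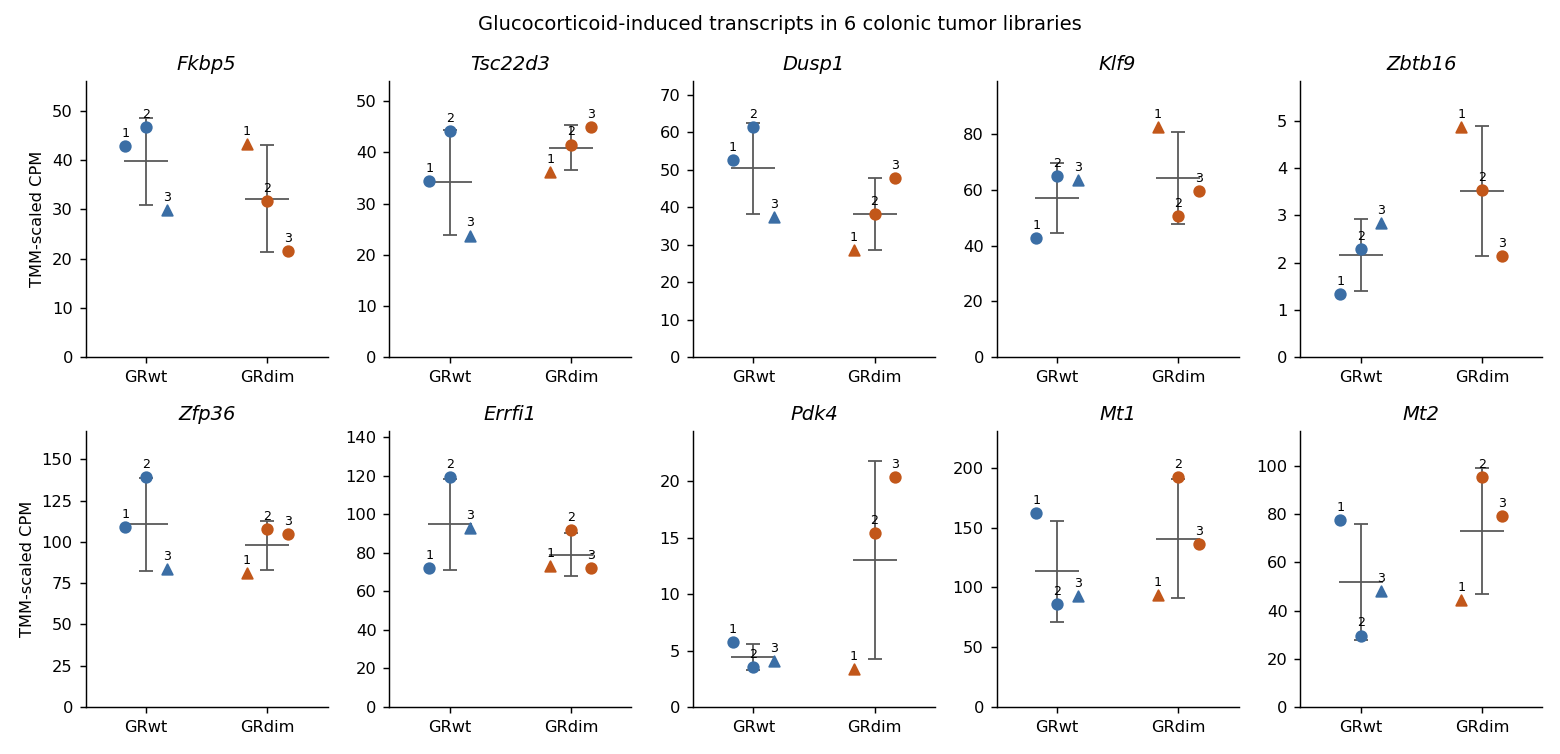
Level of each of the 10 transcripts in TMM-scaled CPM (y axis, from 0) in 3 GRwt (blue) and 3 GRdim (orange) libraries. Digits are replicate numbers, triangles are the libraries with a T in their names, and grey marks are the mean ± SD (n = 3); every gene has overlapping groups, and Pdk4 has 2 GRdim libraries far above the rest.

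**Figure D2:**
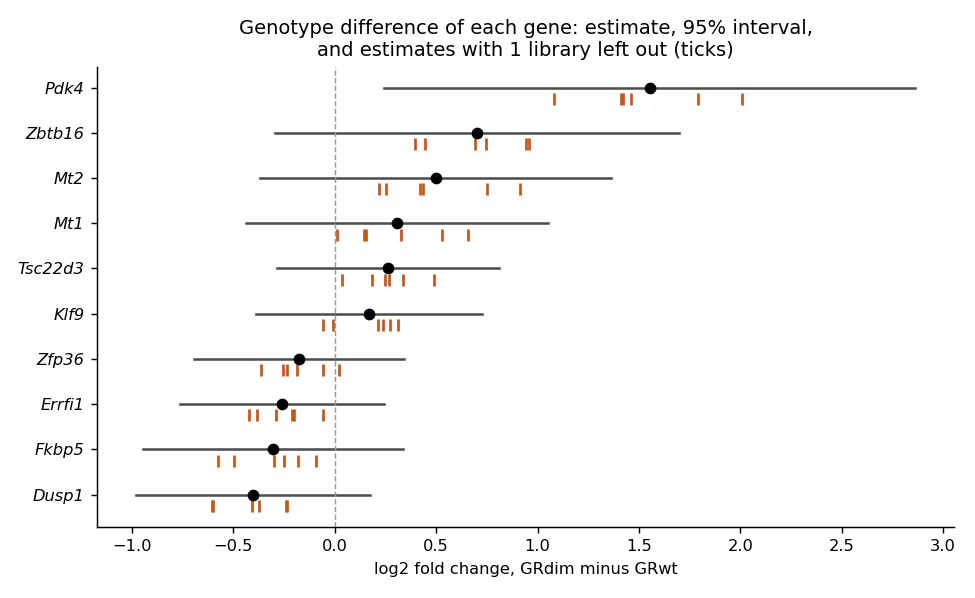
Log2 fold change of each gene, GRdim minus GRwt (x axis), with its 95% interval from edgeR. Ticks under each line are the estimates with each of the 6 libraries left out in turn; the interval of Pdk4, from 0.24 to 2.86, alone lies on 1 side of 0.

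Fkbp5 encodes a co-chaperone of Hsp90 that lowers the hormone affinity of the receptor, and its induction is among the most used readouts of receptor activity. It stood at 42.8, 46.7 and 29.9 CPM in GRwt replicates 1, 2 and 3 and at 43.2, 31.8 and 21.6 CPM in GRdim replicates 1, 2 and 3. The highest value was in GRwt replicate 2 and the lowest in GRdim replicate 3, with GRdim replicate 1 among the GRwt values. GRdim minus GRwt, the log2 difference was -0.31 with a standard error of 0.28 (adjusted p = 0.9999 by edgeR), and its 95% interval ran from -0.95 to 0.33, that is from 0.519 to 1.26 times the GRwt level. The direction depended on which libraries were set against each other. In the 4 libraries with no T the fitted log2 fold change was -0.75 (unadjusted p = 0.0134, adjusted p = 0.714 by edgeR). In that fit 1165 of 18539 genes had an unadjusted p under 0.05. Between both libraries with a T the difference was 0.53 in the other direction, with GRdim replicate 1 above GRwt replicate 3. Without GRdim replicate 3 the estimate was -0.09, without GRdim replicate 1 -0.58.

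Tsc22d3, also known as Gilz, encodes a leucine zipper protein that restrains NF-kB and AP-1. It stood at 34.5, 44.2 and 23.8 CPM in GRwt and at 36.2, 41.5 and 45.0 CPM in GRdim tumors. The GRdim values lay close together, with the highest 1.24 times the lowest, whereas the GRwt values spread 1.86-fold and enclosed all but the highest of them. This gave a log2 fold change of 0.26 (standard error 0.24, 95% interval -0.28 to 0.81, adjusted p = 0.9999 by edgeR). It was 0.04 without GRwt replicate 3, the lowest library, and 0.49 without GRwt replicate 2. Fkbp5 and Tsc22d3, both regarded as direct receptor targets, went separate ways in GRdim replicate 3. There Fkbp5 was at its lowest and Tsc22d3 at its highest of all 6 libraries. The log2 ratio of Fkbp5 to Tsc22d3 was -1.04 in that library and -0.38 in GRdim replicate 2, but between 0.08 and 0.32 in the other 4. As a difference within a library it does not depend on library scaling, though it holds gene lengths and so is read only between libraries.

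Dusp1 and Zfp36 are fast-induced inhibitors of inflammatory signalling: Dusp1 is a phosphatase that inactivates p38 and Jnk kinases, and Zfp36, or tristetraprolin, binds AU-rich messages and speeds their decay. Dusp1 stood at 52.5, 61.3 and 37.4 CPM in GRwt and 28.5, 38.1 and 47.7 CPM in GRdim tumors. Zfp36 stood at 109, 139 and 83.3 CPM in GRwt and 80.8, 108 and 105 CPM in GRdim tumors. For both genes GRwt replicates 2 and 1 were the highest libraries, GRdim replicates 2 and 3 followed, and both libraries with a T were the lowest. The log2 fold change of Dusp1 was -0.40 (standard error 0.25, 95% interval -0.98 to 0.17) and that of Zfp36 -0.18 (standard error 0.23, 95% interval -0.69 to 0.34), with an adjusted p of 0.9999 for each by edgeR. Dusp1 was the lower of the pair in relation to its standard error. With the T as a covariate its estimate stayed at -0.40, with an unadjusted p of 0.021 and an adjusted p of 0.944 by edgeR. That was its lowest unadjusted p over all settings, against 0.145 in the main fit. With this covariate 785 of 18756 genes had an unadjusted p under 0.05. Without GRwt replicate 2 the estimate for Dusp1 was -0.24 and that for Zfp36 0.02. The gene model of Dusp1 overlaps that of Ergic1 on the other strand, which had 23857 counts in all against 7726 for Dusp1. The strand setting of the counting is not given, so reads of the 2 genes may not be fully told apart.

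Both genes are also immediate-early genes, so the other members of that class are given beside them. Junb, a subunit of AP-1, stood at 237, 265 and 148 CPM in GRwt and 120, 224 and 203 CPM in GRdim tumors, the same order of libraries as Zfp36. Ier2, another immediate-early factor, stood at 102, 99.9 and 61.0 CPM against 58.7, 98.3 and 95.3 CPM. Fos and Egr1 departed from this order in GRdim replicate 3, where they reached 213.5 and 88.3 CPM, the highest of all libraries. Of 21 listed immediate-early genes 9 had a positive and 12 a negative log2 fold change, with a median of -0.04 and 0 past the threshold. The direction of that median turned with single libraries, from -0.34 (6 positive, 15 negative) without GRdim replicate 3 to 0.14 (14 positive, 7 negative) without GRdim replicate 1; it was also positive without GRwt replicate 1 (0.06) or GRwt replicate 2 (0.08). Ier3, a stress-induced survival gene, had the smallest p of the list (log2 fold change -0.57, unadjusted p = 0.0465) and did not pass. Summed over the list, these transcripts came to 1220 to 1800 CPM in GRwt and 1130 to 1840 CPM in GRdim tumors, lowest in both libraries with a T. Their part in the levels of Dusp1 and Zfp36 was not tested. The order of libraries was not particular to this class. The epithelial marker Epcam and the co-chaperone gene Fkbp4 had the same order as Zfp36 and Junb, and Anxa1 had that of Dusp1.

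The upstream sequence of Dusp1 is shown, and any link of it to these patterns was not tested. The run below covers the 250 bases before the RefSeq start of Dusp1 (chr17:26508473-26508722, minus strand, GRCm38.p6), with matches to the cyclic AMP response element core TGACG, read on both strands, in capitals.

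Dusp1: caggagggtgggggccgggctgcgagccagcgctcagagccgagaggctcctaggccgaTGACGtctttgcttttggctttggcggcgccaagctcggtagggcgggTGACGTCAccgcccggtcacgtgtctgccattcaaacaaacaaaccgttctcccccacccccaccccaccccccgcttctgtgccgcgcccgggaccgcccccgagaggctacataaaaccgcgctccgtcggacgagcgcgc

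The window held 3 matches, and a pair of them overlap to form the full palindrome TGACGTCA at positions -143 to -136, counted from the start. The core occurred in 17.8% of 32851 such mouse windows and the full palindrome in 1.55%. Among the 12 windows held for 9 of the 10 genes, the core was found in 5. These lay before Dusp1, Errfi1, Klf9, Mt1 and Tsc22d3, and the window of Zfp36 had no match. The full palindrome was also found before 1 of the 2 starts of Errfi1. The receptor palindrome, AGAACA and TGTTCT with 3 bases between, occurred in 0 of the 12 windows that the table held for 9 of the 10 genes, and in 0.00913% of all windows; its core ACANNNTGT occurred before Mt1 alone, against 5.84% of all windows. These matches describe letters in a short window and are not evidence of binding.

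Errfi1, also called Mig6, encodes a feedback inhibitor of the EGF receptor. It stood at 71.9, 119 and 92.7 CPM in GRwt and 73.3, 91.8 and 72.0 CPM in GRdim tumors, so that all GRdim values lay within the GRwt range. Its estimated log2 fold change was -0.26 (standard error 0.22, 95% interval -0.76 to 0.24, adjusted p = 0.9999 by edgeR), and -0.06 without GRwt replicate 2. The standard error was the smallest of the 10, and the interval corresponds to 0.590 to 1.18 times the GRwt level.

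Klf9 encodes a Krüppel-like zinc finger factor that takes part in feedback on glucocorticoid responses. It stood at 42.6, 65.0 and 63.6 CPM in GRwt and 82.5, 50.4 and 59.4 CPM in GRdim tumors. Klf9 had a log2 fold change of 0.17 (standard error 0.24, 95% interval -0.39 to 0.73, adjusted p = 0.9999 by edgeR), and its sign changed without GRwt replicate 1 (-0.01) or GRdim replicate 1 (-0.06). Zbtb16, or PLZF, is a zinc finger repressor whose induction by glucocorticoids is steep in many cell types. It was the scarcest of the 10 in counts, with 45, 45 and 103 counts in GRwt and 130, 125 and 58 counts in GRdim libraries. In CPM these came to 1.34, 2.29 and 2.85 against 4.87, 3.54 and 2.13. The exact 95% counting interval of the lowest library was 0.977 to 1.79 CPM and that of the highest 4.07 to 5.78 CPM, so the spread between libraries exceeded counting error, the only error these intervals cover. For Zbtb16 the log2 fold change was 0.70 (standard error 0.44, 95% interval -0.29 to 1.70, adjusted p = 0.9999 by edgeR), and ranged from 0.39 to 0.96 as single libraries were left out.

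Klf9, Zbtb16 and Fkbp5 shared a feature in GRdim tumors: each was higher in replicate 1 than in replicate 3, the libraries with the number 18 in common. Zbtb16 was 2.28 times, Fkbp5 2.00 times and Klf9 1.39 times as high. Pdk4, Mt2 and Dusp1 were 6.13, 1.78 and 1.68 times as high in replicate 3. For Pdk4 the contrast inside this pair exceeded the 2.93-fold difference between the genotypes.

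**Figure D3:**
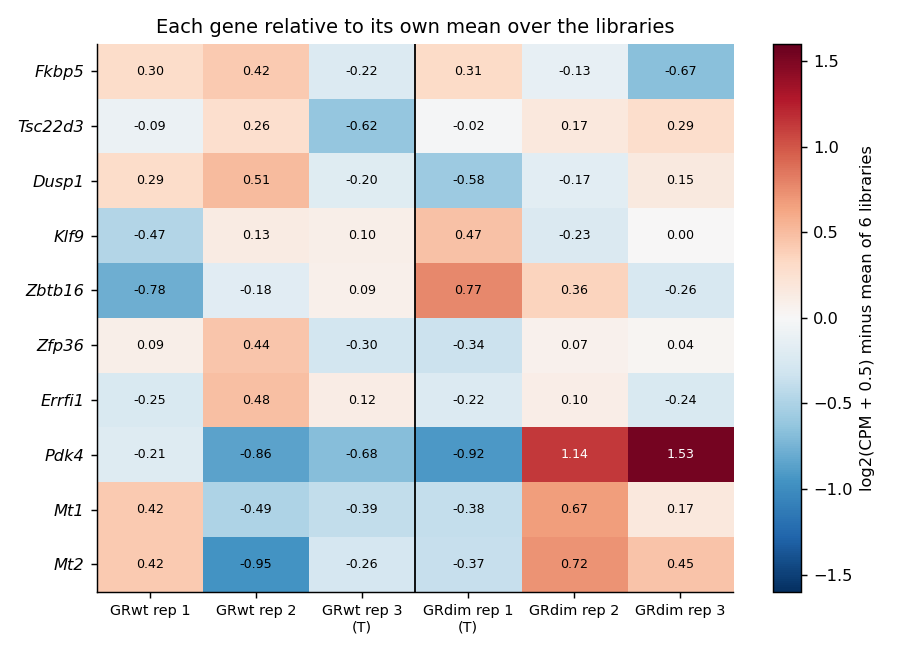
Heat map of log2(CPM + 0.5) of each gene minus its mean over the 6 libraries, with the values printed in the cells and (T) marking libraries with a T in their names. Pdk4 reaches 1.14 and 1.53 in GRdim replicates 2 and 3 and -0.92 in GRdim replicate 1, and no column is uniformly high or low.

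Pdk4 had the largest difference. It encodes a mitochondrial kinase that switches off pyruvate dehydrogenase and so spares glucose, and both glucocorticoids and fatty acid-activated PPARs induce it. It stood at 5.77, 3.51 and 4.04 CPM in GRwt replicates 1, 2 and 3 (194, 69 and 146 counts) and at 3.33, 15.4 and 20.4 CPM in GRdim replicates 1, 2 and 3 (89, 545 and 556 counts). GRdim replicates 2 and 3 were far above the GRwt range, and GRdim replicate 1 was the lowest of all 6 libraries. The group means were 4.44 ± 1.19 and 13.1 ± 8.79 CPM (mean ± SD, n = 3 each). The log2 fold change was 1.55 with a standard error of 0.57, a 2.93-fold difference whose 95% interval ran from 1.18-fold to 7.28-fold. With edgeR the unadjusted p was 0.0254, the 250th smallest of 18756, and the adjusted p was 0.9999; with DESeq2 the adjusted p was 0.52. Without GRdim replicate 1 the log2 fold change was 2.01 (unadjusted p = 1.7e-04, adjusted p = 0.316 by edgeR). In that fit 1048 of 19453 genes had an unadjusted p under 0.05. The log2 fold change was 1.08 without GRdim replicate 3 and -0.24 between both libraries with a T. The gene thus missed the threshold under every setting tried.

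Markers of smooth muscle and adipose tissue are given beside Pdk4. All 10 smooth muscle markers had a positive log2 fold change, and 0 passed the threshold. An unadjusted p under 0.05 by edgeR was found for 8 (2.88% of all genes tested). Their median log2 fold change was 1.2, and 0.473 without GRdim replicate 3, with all 10 still positive. These markers summed to between 1310 and 1500 CPM in GRwt and to 2700, 1260 and 6540 CPM in GRdim replicates 1, 2 and 3. Adipocyte markers, 8 of 9 tested with a positive log2 fold change and 0 past the threshold, summed to between 92.8 and 137 CPM in GRwt and to 265, 76.1 and 206 CPM in GRdim replicates 1, 2 and 3. In GRdim replicate 3 Pdk4 and the smooth muscle sum were both the highest of all libraries. In GRdim replicate 2 Pdk4 was high and both sums were the lowest, and in GRdim replicate 1 Pdk4 was the lowest and the adipocyte sum the highest. The part of these tissues in the level of Pdk4 was not tested. In GRdim replicate 2 the adipocyte genes Adipoq and Plin1 had 2 and 0 counts, against 321 and 144 in GRdim replicate 1 and 130 and 83 in GRdim replicate 3. In GRwt replicates 1, 2 and 3 Adipoq had 102, 0 and 1 counts and Plin1 34, 0 and 0. Pparg, also in the adipocyte sums, stood at 38.3, 53.0 and 36.6 CPM in GRwt and 47.7, 39.7 and 37.6 CPM in GRdim tumors. Squamous epithelial markers reached 659 CPM in GRdim replicate 3, against 73.9 to 136 CPM in the other 5 libraries; of these markers Krt4, a keratin, passed the threshold with DESeq2 (log2 fold change 1.78, adjusted p = 0.0254). Of 14 tested PPAR-responsive genes 6 had a positive and 8 a negative log2 fold change, with a median of -0.04. That median was 0.13 (10 positive, 4 negative) without GRwt replicate 2 and -0.25 (4 positive, 10 negative) without GRwt replicate 3. Angptl4, a lipoprotein lipase inhibitor that often rises with Pdk4, stood at 12.9, 9.46 and 5.94 CPM in GRwt and 7.19, 4.73 and 4.74 CPM in GRdim tumors (log2 fold change -0.76, unadjusted p = 0.0569). The related kinase gene Pdk2 stood at 41.1, 52.2 and 32.5 CPM against 46.4, 69.7 and 61.5 CPM (log2 fold change 0.50, unadjusted p = 0.0617), highest in the libraries where Pdk4 was high. Pdk1 and Pdk3 had log2 fold changes of 0.01 and -0.20. None of these passed the threshold.

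Mt1 and Mt2 encode metallothioneins, small cysteine-rich proteins that bind zinc and copper, and are induced by metals through the factor Mtf1 as well as by glucocorticoids. Mt1 stood at 162, 86.3 and 92.5 CPM in GRwt and 93.3, 193 and 136 CPM in GRdim tumors. Mt2 stood at 77.6, 29.6 and 48.1 CPM in GRwt and 44.6, 95.6 and 79.3 CPM in GRdim tumors. Both genes were high in GRwt replicate 1 and GRdim replicates 2 and 3 and low in the other 3 libraries, so the high libraries came from both genotypes. The log2 fold change was 0.31 for Mt1 (standard error 0.33, 95% interval -0.44 to 1.05) and 0.50 for Mt2 (standard error 0.38, 95% interval -0.37 to 1.36), with an adjusted p of 0.9999 for each by edgeR. Estimates for Mt1 ranged from 0.01 without GRdim replicate 2 to 0.66 without GRwt replicate 1, and those for Mt2 from 0.22 without GRwt replicate 2 to 0.91 without GRwt replicate 1. The ratio of Mt1 to Mt2 lay between 1.72 and 2.09 in 5 libraries and at 2.91 in GRwt replicate 2. None of the 50-base stretches of either gene's transcripts in GENCODE M21 was found, letter for letter, in a transcript of another gene. This check does not cover reads with mismatches or the annotation used for counting. How fully the counts separate the paralogs was not tested. Mt2 also overlaps Gm45774, which had 190 counts in all. Along with Pdk4 these were the most variable of the 10 for their abundance. In tagwise variation alone Zbtb16 (0.405) was above Mt2 (0.334) and Mt1 (0.292). The tagwise variation of Mt2, Pdk4 and Mt1 relative to the trend for their abundance exceeded that of 95.5%, 94.8% and 91.0% of genes tested, against 58.3% to 81.3% for the other 7.

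The neighbouring paralogs varied in parallel. Mt4, Mt3, Mt2 and Mt1 lie in this order on the plus strand of chromosome 8, between 94863825 and 94906955 (GRCm39). Mt3, best known from brain, stood at 267, 95.9 and 73.4 CPM in GRwt and 64.3, 249 and 238 CPM in GRdim tumors. Mt4, best known from stratified squamous epithelia, stood at 269, 110 and 113 CPM in GRwt and 104, 346 and 334 CPM in GRdim tumors. Each of the 4 genes was higher in GRwt replicate 1 and GRdim replicates 2 and 3 than in any of the other 3 libraries. Of 10 listed metal-responsive genes, Mt1 and Mt2 among them, 4 had a positive and 6 a negative log2 fold change, with 0 past the threshold. The zinc exporter Slc30a1, a further Mtf1 target, stood at 18.7, 25.3 and 18.6 CPM in GRwt and 26.8, 13.4 and 22.7 CPM in GRdim tumors, and was thus at its lowest in GRdim replicate 2, where Mt1 and Mt2 were at their highest.

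Since Mt1 and Mt2 varied together, their upstream windows are shown, 250 bases before the RefSeq start (plus strand, GRCm38.p6, chr8:94178839-94179088 for Mt1 and chr8:94172368-94172617 for Mt2). Capitals mark the metal response element core, searched as TGCACNC and TGCGCNC on both strands.

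Mt1: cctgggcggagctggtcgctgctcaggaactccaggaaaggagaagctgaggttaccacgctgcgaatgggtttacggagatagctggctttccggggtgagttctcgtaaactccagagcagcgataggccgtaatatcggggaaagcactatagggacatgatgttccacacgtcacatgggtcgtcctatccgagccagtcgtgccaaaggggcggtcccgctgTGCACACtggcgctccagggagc
Mt2: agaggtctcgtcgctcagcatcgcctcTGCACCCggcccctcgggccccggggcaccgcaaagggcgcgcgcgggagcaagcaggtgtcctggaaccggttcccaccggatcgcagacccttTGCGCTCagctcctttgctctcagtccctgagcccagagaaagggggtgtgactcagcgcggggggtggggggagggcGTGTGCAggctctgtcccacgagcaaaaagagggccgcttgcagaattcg

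The window of Mt1 held 1 match and that of Mt2 held 3, and none was found before the other 7 genes with a window; 21.4% of all windows held at least 1. The annotated starts lie upstream of a TATA box (TATAAA) at base 129 of the Mt1 transcript and base 90 of the Mt2 transcript in GENCODE M21, so sequence nearer to that box is outside these windows.

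**Figure D4:**
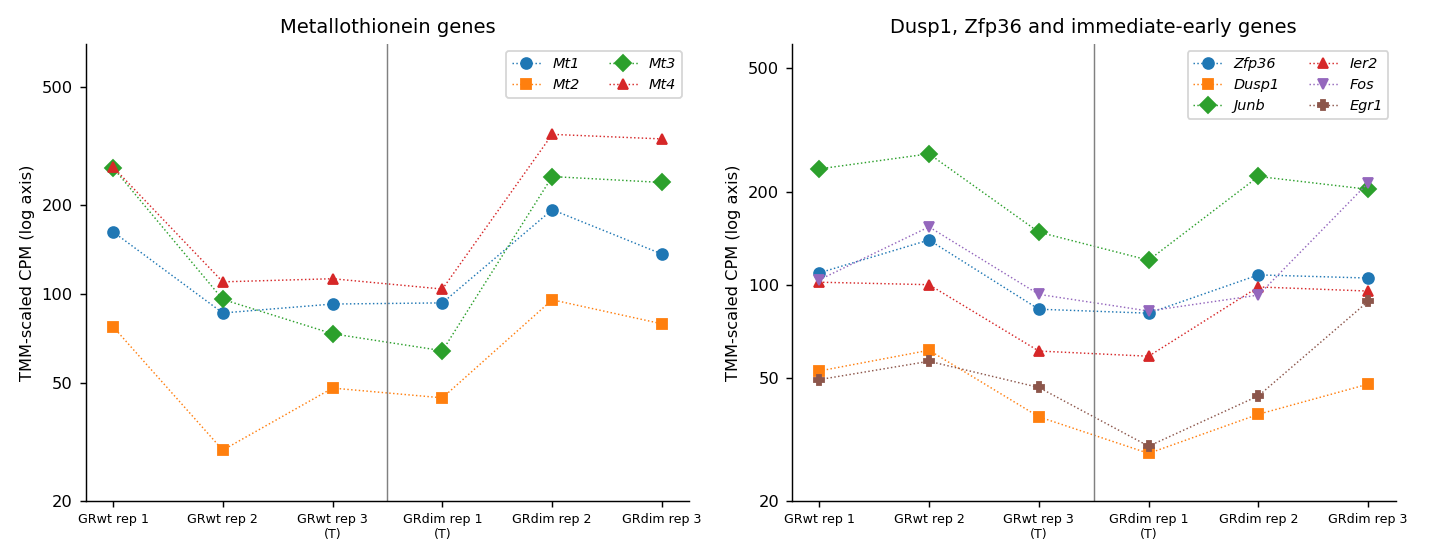
TMM-scaled CPM (log axis) in each of the 6 libraries, GRwt left and GRdim right of the grey line, for the 4 metallothionein genes (left) and for Dusp1 and Zfp36 with 4 immediate-early genes (right). Metallothioneins are high in GRwt replicate 1 and GRdim replicates 2 and 3; Zfp36, Dusp1, Junb and Ier2 are lowest in both libraries with a T.

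A wider list of 37 other glucocorticoid-responsive genes, all of them tested, gave 0 past the threshold with edgeR and 0 with DESeq2 or limma-voom. Of these genes 20 had a positive and 17 a negative log2 fold change, with a median of 0.02, and 4 had an unadjusted p under 0.05 (2.88% of all genes tested did). Members went both ways. Sgk1, a kinase that activates epithelial sodium transport, stood at 45.1, 55.8 and 46.4 CPM in GRwt and 89.0, 84.4 and 74.3 CPM in GRdim tumors, higher in each GRdim library than in any GRwt library. Its log2 fold change was 0.75 (standard error 0.17, unadjusted p = 0.00183, adjusted p = 0.9999 by edgeR), and it ran from 0.65 to 0.85 over the alternatives, with 0.0729 the lowest adjusted p. Per1, a clock gene with a receptor response element, stood at 19.9, 26.4 and 20.6 CPM against 31.3, 30.9 and 29.0 CPM (log2 fold change 0.45, unadjusted p = 0.0381). Cebpb, a factor of acute-phase gene expression, was on the opposite side at 31.9, 23.3 and 25.6 CPM against 16.7, 13.0 and 15.9 CPM (log2 fold change -0.82, unadjusted p = 0.00347). Tgm2, a transglutaminase, stood at 211, 244 and 160.5 CPM against 139.5, 117 and 126.5 CPM (log2 fold change -0.68, unadjusted p = 0.00891). With Sesn1, 3 of the 37 separated completely upward and 2 downward, against 2.98% and 3.57% of all genes tested. This list, like the others here, was chosen with earlier results of these data known, so such shares do not test it. Neither Nfkbia nor Ddit4, an inhibitor of NF-kB and one of mTOR, came near the threshold (log2 fold changes 0.10 and -0.08).

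**Figure D5:**
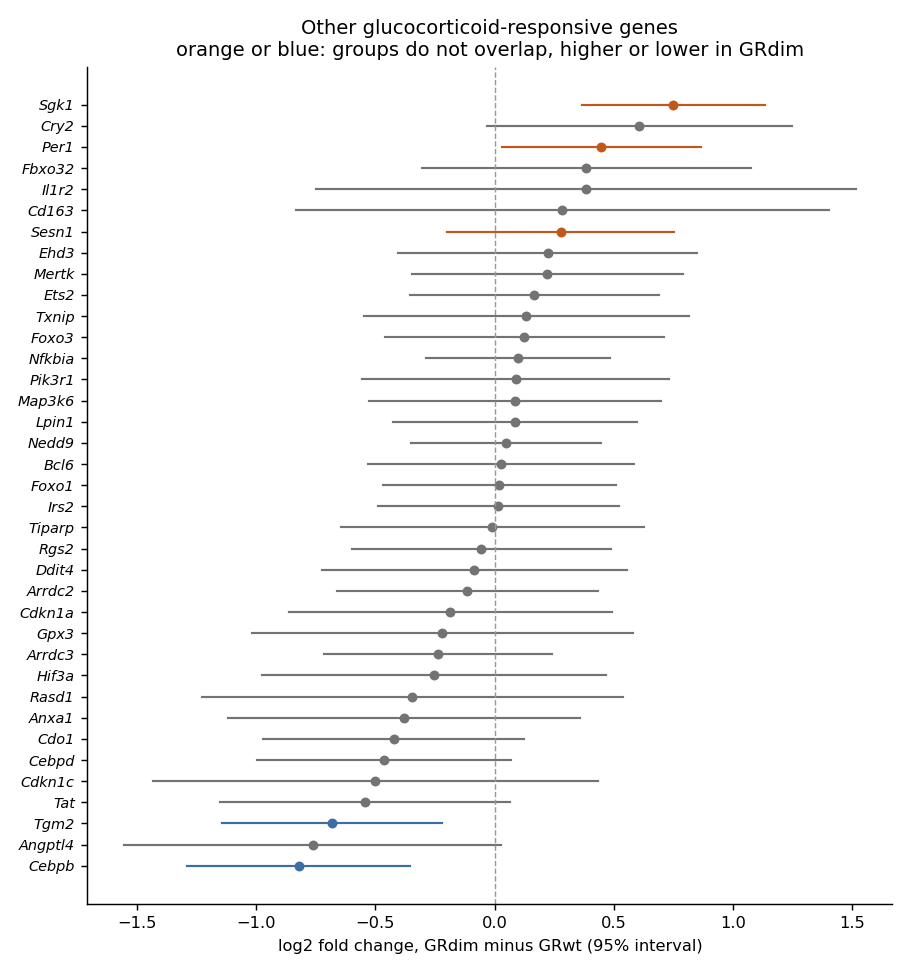
Log2 fold change, GRdim minus GRwt, with its 95% interval (x axis) for 37 other glucocorticoid-responsive genes, sorted by size. Orange and blue mark genes whose GRdim values all lie above or below the GRwt values, Sgk1, Per1 and Sesn1 above and Tgm2 and Cebpb below; none passed the adjusted threshold.

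Since several of these genes follow the hour of the day and corticosterone does too, clock genes are given beside them. Of 17 tested clock genes 10 had a positive and 7 a negative log2 fold change, with a median of 0.015 and 0 past the threshold. This balance rested on GRwt replicate 2, without which 15 were positive and 2 negative, with a median of 0.44 and 0 past the threshold. Hlf, an output factor of the clock, stood at 1.49, 0.712 and 1.08 CPM in GRwt and 2.695, 2.64 and 4.26 CPM in GRdim tumors (log2 fold change 1.53, unadjusted p = 0.00581). Dbp, a strongly rhythmic output gene, stood at 8.27, 26.2 and 3.87 CPM in GRwt and 6.03, 8.33 and 10.5 CPM in GRdim tumors. It was highest in GRwt replicate 2, the library in which 4 of the 10 genes, Fkbp5, Dusp1, Zfp36 and Errfi1, were also at their highest. Another 2 of the 10, Mt1 and Mt2, were at their lowest in that library, as was Hlf. The part of sampling time in these values was not tested.

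Among relatives of the 10 genes 30 were tested, 16 with a positive and 14 with a negative log2 fold change, a median of 0.02 and 0 past the threshold. Fkbp4, the Hsp90 co-chaperone that opposes Fkbp5 at the receptor, stood at 470.5, 491 and 330.5 CPM in GRwt and 249, 410 and 333 CPM in GRdim tumors (log2 fold change -0.38, unadjusted p = 0.167). Tsc22d1 and Tsc22d2 had log2 fold changes of 0.15 and -0.06. Zfp36l2 and Zfp36l1, which like Zfp36 bind AU-rich messages, had 0.28 and 0.08. Of the 30 relatives 1, Zfp36l2, was higher in each GRdim library than in any GRwt library (unadjusted p = 0.218 by edgeR). The same held for 2.98% of all genes tested. Dusp6 and Dusp5, phosphatases of the Erk kinases, had -0.25 and -0.40.

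Markers of immune and stromal cells are given as context, from lists also chosen with earlier results of these data known. All 9 neutrophil markers tested had a negative log2 fold change, with a median of -1.51, and for 6 of them all GRdim values lay below all GRwt values (as for 3.57% of all genes tested). An unadjusted p under 0.05 was found for 6, and 0 passed the threshold with edgeR. With DESeq2 1 passed, S100a8, which encodes part of calprotectin (log2 fold change -1.95, adjusted p = 9.17e-04). The median stayed between -1.66 and -1.15 as single libraries were left out. Summed, these markers came to 206, 310 and 160 CPM in GRwt and 114, 130 and 194 CPM in GRdim tumors, sums that overlap and are mostly Ly6g (164.9, 266 and 98.0 CPM against 95.8, 119.6 and 169.7 CPM). Macrophage and monocyte markers summed to 389 to 645 CPM in GRwt and 356 to 482 CPM in GRdim tumors. B cell markers were highest in GRdim replicate 2 (206 CPM) and GRwt replicate 3 (176 CPM), and T and NK cell markers ranged from 19.0 to 22.5 CPM in GRwt and from 24.5 to 30.6 CPM in GRdim tumors. Of the 9 T and NK cell markers tested 8 had a positive log2 fold change and 0 an unadjusted p under 0.05. For 3 of them all GRdim values lay above all GRwt values (as for 2.98% of all genes tested). Fibroblast markers summed to 2220, 1570 and 1560 CPM against 2470, 992 and 2420 CPM and endothelial markers to 195, 136 and 215 CPM against 268, 132 and 284 CPM. The part of these cell types in the levels of the 10 genes was not tested.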

How the data were processed

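Per the submitters' processing notes, base calls were converted with bcl2fastq 2.20.0.422, reads were trimmed with Trim Galore, checked with FastQC and MultiQC, aligned with STAR 2.7.8a to GRCm39 and counted with featureCounts of Subread 1.5.0; DESeq2 1.40.2 is also listed. What the authors deposited is a matrix of unnormalized whole-number counts by gene. Annotation release, strand setting and any filter on genes are not given in the sources used here. Per the labels, a strand-specific Illumina mRNA kit was used. Columns were matched to samples by library name.

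Counts of all 24797 genes were tested with edgeR 4.0.16 (R 4.3.3): TMM, the default low-count filter by group, robust quasi-likelihood F test and Benjamini-Hochberg adjustment over 18756 genes, with 0.05 as threshold. Standard errors are the log2 fold change divided by the square root of F. Intervals are 95%. The scripts were tested on simulated data. The 10 genes and all lists were chosen with earlier results of these data known. The naming rule took the 10 genes, Nr3c1 and from each list genes past the threshold or up to 4 of smallest p; other genes named were chosen after their values were seen. Alternatives were DESeq2 1.42.0, limma-voom (limma 3.58.1) with sample quality weights, other size factors, no filter, the T as covariate, libraries with no T alone, GRdim replicates 1 and 3 summed, a fit blocked on replicate number, and leaving out single libraries. Motifs were searched in RefSeq upstream windows (GRCm38.p6).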

Additional observations from a re-analysis of the deposited data

How the results depend on the processing

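Under every alternative 0 of the 10 genes and 0 of the 37 other responsive genes passed the threshold. Over the whole table DESeq2 called 9 genes higher and 24 lower, where edgeR called 0; all other alternatives called 0 in each direction, and the cause was not tested. The median log2 fold change of the 10 genes ran from 0.0846 (libraries with no T alone) to 0.228 (replicate block), and from 0.0963 to 0.199 as each library was left out. Of the 10 genes Klf9 changed sign when GRwt replicate 1 (-0.0065) or GRdim replicate 1 (-0.0576) was left out (range up to 0.311), and Zfp36 when GRwt replicate 2 was (0.0221, range down to -0.364). Nr3c1, at 0.109, changed sign with the libraries with no T alone (-0.0411), when GRwt replicate 1 (-0.0339) or GRdim replicate 1 (-0.171) was left out (range up to 0.227). The other 8 genes kept their direction under all alternatives run. With the replicate block Pdk4 had a log2 fold change of 1.31 and Fkbp5 -0.336. Correlations of deviations across genes were -0.455, 0.0321 and -0.434 for same-numbered samples. They were 0.479 for GRwt replicate 3 with GRdim replicate 1, the libraries with a T, and 0.427 for GRwt replicate 1 with GRdim replicate 3. Since the T falls on different numbers, these correlations cannot decide whether the numbers mark pairs. The main fit does not use the numbers as pairs. The medians of the 37 other responsive genes, the 30 relatives and the 10 metal-responsive genes, 0.019, 0.0198 and -0.122, also changed sign with single libraries (-0.0425 to 0.0873, -0.0587 to 0.0569 and -0.207 to 0.0223). Zbtb16 and Pdk4 had the fewest counts, 45 to 130 and 69 to 556 per library, and both spread between libraries beyond their counting intervals.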
